A study of Arabidopsis thaliana with 19 samples.

Results

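The 6 genes described here encode the enzymes that build the raffinose family of sugars: 4 galactinol synthases, GOLS1 (AT2G47180), GOLS2 (AT1G56600), GOLS3 (AT1G09350) and GOLS4 (AT1G60470), the raffinose synthase RS5 (AT5G40390) and RS4 (AT4G01970), a stachyose synthase. They were chosen by AGI code for this role, and all 6 had a row among the 21313 genes of the table. Dormant whole seeds of 5 Arabidopsis genotypes, imbibed in water for 24 h according to the sample titles and the treatment description, were hybridized to ATH1 GeneChips. The genotypes were the wild-type accession Landsberg erecta (Ler) and near-isogenic lines (NILs) in the Ler background: NILDOG1, NILDOG2 and NILDOG3 carry a fragment from the accession Cvi at a DELAY OF GERMINATION (DOG) locus and NILDOG6 carries one from Kas-2. There were 5 arrays each of Ler and NILDOG1 and 3 each of NILDOG2, NILDOG3 and NILDOG6, each array from bulked seeds of several plants. Each genotype other than Ler is 1 line, so an effect of its DOG locus and one of other genes on its fragment cannot be told apart. The study ranked NILDOG2 as less dormant than Ler, and NILDOG1, NILDOG3 and NILDOG6 as more dormant.

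Galactinol synthase joins galactose from UDP-galactose to myo-inositol, which is the committed step of the pathway. Raffinose synthase passes the galactose of galactinol to sucrose, and stachyose synthase passes a further galactose to raffinose. These sugars are laid down in maturing seeds together with the storage reserves, are associated with desiccation tolerance and are broken down by α-galactosidases once germination proceeds. In Arabidopsis seedlings and leaves GOLS1 and GOLS2 are known for their response to drought, salt and heat, with GOLS1 a target of heat shock factors, while GOLS3 is known for its response to cold through the CBF factors.

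The values are log2 RMA values, which run from 1.92 to 14.61 over the table, with array medians of 4.63 to 4.92 and upper quartiles of 7.0 to 7.15. All 11 seed markers (cruciferins, 2S albumins, oleosins and Em proteins) had values of 9.3 to 14.61, and the endosperm marker EPR1 was at 12.78 to 13.65. The 4 seed coat markers were at 2.57 to 5.08. Of 7 leaf photosynthesis markers and of the other endosperm gene listed, none had a row. The mean over the 11 seed markers was 12.78 to 12.96 in the Ler arrays, 12.96 to 13.2 in NILDOG1, 13.15 to 13.22 in NILDOG2, 12.93 to 13.04 in NILDOG3 and 12.85 to 13.09 in NILDOG6. The storage albumin genes SESA2 and SESA4 passed the test in NILDOG2, both above Ler. The array labelled NILDOG6 replicate 1 stood apart from its group. At 11 genes of chromosome 3 that separated the other two NILDOG6 arrays from Ler, its median position was 0.00936 on a scale on which the Ler mean is 0 and the mean of the other two arrays is 1. EM1, a late embryogenesis abundant gene among the seed markers, is named after its values were seen. All 3 of its NILDOG3 arrays lay above Ler, as they did for 4.71% of all genes. The difference was 0.65 (95% confidence interval 0.23 to 1.08, unadjusted p = 0.0046, limma adjusted p = 0.090). Of the 11 seed markers, 6 were above 0 and 5 below 0 in NILDOG3, with a median of 0.073. EM1 was the only 1 of them at an unadjusted p under 0.05 there. In NILDOG6 EM1 differed from Ler by 0.33, and by 0.64 without the array labelled NILDOG6 replicate 1. It then passed (limma adjusted p = 0.044), as 1 of the 11 seed markers and with 8.39% of all genes. EPR1 differed from Ler by -0.087 in NILDOG1, 0.035 in NILDOG2, 0.249 in NILDOG3 and 0.349 in NILDOG6, and none passed the test. Its NILDOG6 difference was 0.51 (limma adjusted p = 0.055) without the array labelled NILDOG6 replicate 1. The part of these seed markers and of EPR1 in the members' differences was not tested. Each difference of a member between NILDOG6 and Ler is given with and without that array. In whole seeds, fewer cells of a type and less RNA per cell cannot be told apart.

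GOLS1 and GOLS2 had values in the upper part of every array, and the other members were lower. GOLS1 lay between percentiles 94.7 and 98.7 of the genes on its array and GOLS2 between 84.6 and 96.3. RS4 spanned percentiles 53.1 to 81.2, the widest span of the 6. GOLS3 (43.5 to 56.3) and RS5 (48.6 to 58.3) stayed near the array median. GOLS4 was the dimmest, at percentiles 23.7 to 46.1 and below the 30th percentile on 4 arrays. These positions describe probe sets, and a probe set's brightness is no measure of one gene's transcript against another's.

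**Figure D1:**
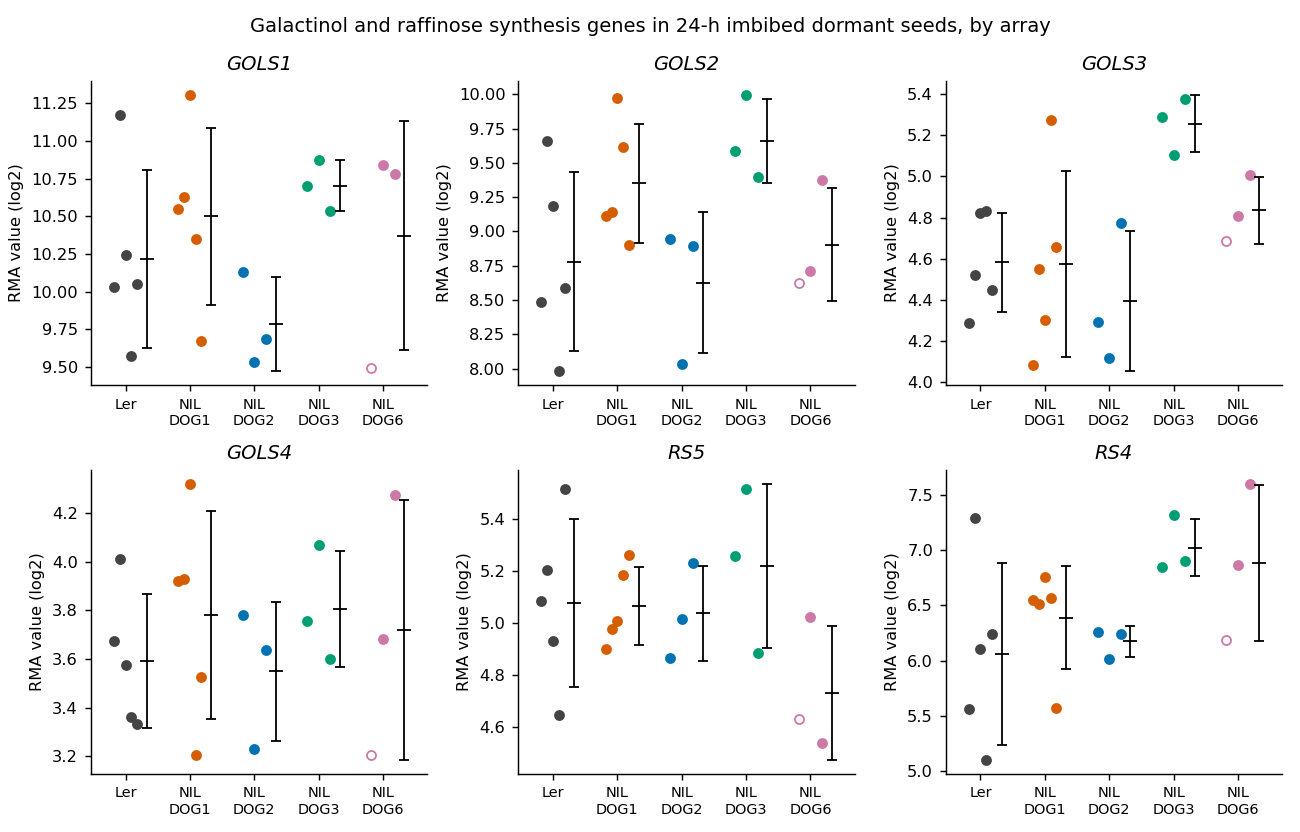
RMA value (log2, y axis, a separate scale in each panel) of the 6 synthesis genes in each of the 19 arrays, by genotype (x axis), with black bars for the mean ± SD; the open circle is the array labelled NILDOG6 replicate 1. The 3 NILDOG3 arrays of GOLS3, 5.10 to 5.38, lie above all 5 Ler arrays, while the other panels show overlap between NILDOG3 and Ler.

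GOLS1 ranged from 9.49 to 11.31 over the 19 arrays. Its 5 Ler values were 10.03, 11.18, 10.25, 9.57 and 10.05 and its 5 NILDOG1 values were 10.55, 10.63, 11.31, 10.35 and 9.67. The values were 10.13, 9.53 and 9.68 in NILDOG2, 10.70, 10.88 and 10.54 in NILDOG3, and 9.49, 10.84 and 10.78 in NILDOG6. The brightest array of Ler and the brightest of NILDOG1 were the 2 highest of all, and every NIL overlapped with Ler. The SD within genotypes, 0.547, was almost as large as the SD over all arrays, 0.563. The difference from Ler was 0.29 in NILDOG1 (95% confidence interval -0.34 to 0.91), -0.43 in NILDOG2 (-1.16 to 0.29), 0.49 in NILDOG3 (-0.24 to 1.21) and 0.16 in NILDOG6 (-0.57 to 0.88). None passed the test, with limma adjusted p from 0.524 to 0.900. Without the array labelled NILDOG6 replicate 1, the lowest of the 19, the NILDOG6 difference was 0.60 (-0.13 to 1.33, adjusted p = 0.313).

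GOLS2 had a similar spread, from 7.981 to 9.996. It was at 8.48, 9.66, 9.19, 7.98 and 8.59 in Ler and at 9.11, 9.15, 9.97, 9.62 and 8.90 in NILDOG1. It was at 8.95, 8.03 and 8.90 in NILDOG2, at 9.59, 9.996 and 9.40 in NILDOG3, and at 8.63, 8.71 and 9.37 in NILDOG6. The NILDOG3 arrays were above Ler apart from Ler replicate 2, which lay among them. The NILDOG3 difference was 0.88 (0.21 to 1.55), a 1.84-fold higher mean, with an unadjusted p of 0.0126 that became 0.151 after Benjamini-Hochberg adjustment in limma. NILDOG1 came next at 0.57 (-0.01 to 1.15, adjusted p = 0.468). The differences of -0.16 in NILDOG2 and 0.12 in NILDOG6 were within the spread between arrays, as was the NILDOG6 difference of 0.26 (-0.51 to 1.03, adjusted p = 0.712) without the array labelled NILDOG6 replicate 1. Leaving out Ler replicate 2, the Ler array among the NILDOG3 values, moved the NILDOG3 difference to 1.099, which passed the test (adjusted p = 0.029). The NILDOG3 difference passed under 2 of 28 other settings, with limma adjusted p from 0.029 to 0.500 over the 28.

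GOLS3 was the 1 member whose NILDOG3 arrays did not overlap with Ler. Its NILDOG3 values were 5.29, 5.10 and 5.38, against 4.29, 4.52, 4.82, 4.83 and 4.45 in Ler. NILDOG1 had 4.08, 4.55, 4.31, 5.28 and 4.66, NILDOG2 had 4.29, 4.12 and 4.78, and NILDOG6 had 4.69, 4.81 and 5.01. All 3 NILDOG3 arrays exceeded every Ler, NILDOG2 and NILDOG6 array, and NILDOG1 replicate 4 was the exception that fell among them. Of all genes, 4.71% had NILDOG3 arrays entirely above Ler, 13.8% above NILDOG2 and 8.83% above NILDOG6. The NILDOG3 difference from Ler was 0.67 (0.24 to 1.11), a 1.6-fold higher mean, with an unadjusted p of 0.0044 and a limma adjusted p of 0.088. The NILDOG6 difference was 0.25 (-0.18 to 0.69, adjusted p = 0.558), or 0.33 (-0.18 to 0.83, adjusted p = 0.447) without the array labelled NILDOG6 replicate 1. The NILDOG3 difference passed the test when NILDOG1 replicate 4 was left out (adjusted p = 0.036). All arrays share an estimate of the spread in the fit, and the cause of this change was not tested.

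RS4 was the most variable member, from 5.10 to 7.60. Ler alone spanned 5.56, 7.30, 6.11, 5.10 and 6.24, and the NILDOG1 values were 6.55, 6.52, 6.75, 6.56 and 5.57. NILDOG2 was at 6.26, 6.02 and 6.24, NILDOG3 at 6.85, 7.32 and 6.90, and NILDOG6 at 6.19, 6.87 and 7.60. As for GOLS2, Ler replicate 2 was the only Ler array within the NILDOG3 range. The NILDOG3 difference was 0.96 (0.18 to 1.73), a 1.94-fold higher mean (unadjusted p = 0.0177, limma adjusted p = 0.18). The NILDOG6 difference was 0.82 (0.05 to 1.60, unadjusted p = 0.038, adjusted p = 0.235) and 1.17 (0.34 to 2.01, adjusted p = 0.075) without the array labelled NILDOG6 replicate 1. With Ler replicate 2 left out, both passed the test, at 1.27 in NILDOG3 (adjusted p = 0.018) and 1.13 in NILDOG6 (adjusted p = 0.043). Over 28 other settings the NILDOG3 difference passed under 2, with limma adjusted p up to 0.516. The NILDOG6 difference passed under 1, with adjusted p up to 0.671.

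GOLS4 and RS5 varied least between genotypes. GOLS4 ran from 3.204 to 4.322, with differences from Ler of -0.04 to 0.22 and limma adjusted p from 0.718 to 1.000. Its NILDOG6 difference of 0.13 became 0.39 (-0.14 to 0.92, adjusted p = 0.379) without the array labelled NILDOG6 replicate 1. RS5 ran from 4.54 to 5.51 and differed from Ler by at most 0.14 upward, in NILDOG3. Its NILDOG6 values of 4.63, 5.02 and 4.54 were the low end, at -0.35 (-0.71 to 0.02, adjusted p = 0.302), or -0.30 without the array labelled NILDOG6 replicate 1.

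**Figure D2:**
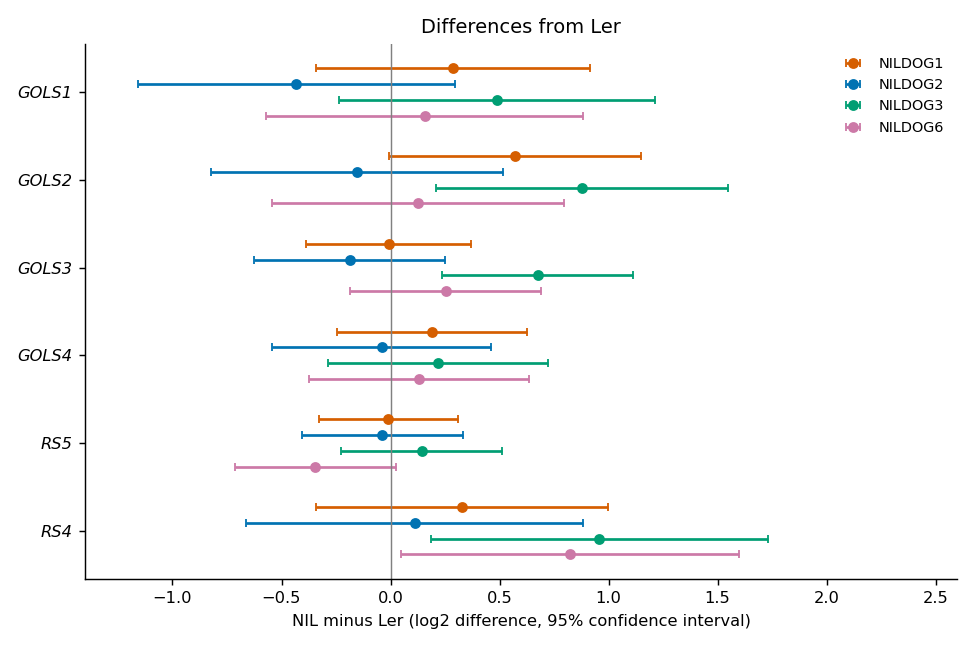
Difference of each NIL from Ler (log2, x axis) for the 6 synthesis genes (y axis), with 95% confidence intervals from the limma fit over all 19 arrays. The NILDOG3 intervals of GOLS2, GOLS3 and RS4 and the NILDOG6 interval of RS4 exclude 0, and no difference passed the test after adjustment.

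Counted together, 0 of the 6 genes passed the limma test at an adjusted p under 0.05 in any NIL against Ler, nor did any in the F test over the genotypes, where adjusted p ran from 0.105 for GOLS3 to 0.883 for GOLS4. At an unadjusted p under 0.05 the F test took 2 of the 6, GOLS2 and GOLS3 (21.9% of all genes). Over all genes, 1.17% passed in NILDOG1, 0.305% in NILDOG2, 2.88% in NILDOG3, 2.36% in NILDOG6 and 6.39% in the F test. Without the array labelled NILDOG6 replicate 1 the count of members in NILDOG6 was again 0, while 8.39% of all genes passed. At an unadjusted p under 0.05 the counts were 0 in NILDOG1 (10.9% of all genes), 0 in NILDOG2 (6.78%), 3 in NILDOG3 (17.1%) and 1 in NILDOG6 (18.8%). In NILDOG3 all 6 differences were above 0, with a median of 0.581 against 0.015 over all genes. The medians were 0.238 in NILDOG1 (4 of 6 above 0, and all 6 with arrays centred or quantile-normalized, all genes 0.022), -0.098 in NILDOG2 (5 of 6 below 0, all genes -0.003) and 0.144 in NILDOG6 (5 of 6 above 0, all genes 0.01). The NILDOG6 median was 0.357 (5 of 6 above 0, all genes 0.011) without the array labelled NILDOG6 replicate 1. The 4 comparisons share the Ler arrays, and 4 of the members vary together between arrays, as described below, so the differences of one NIL are not separate pieces of evidence.

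Ranked by genotype mean, NILDOG3 came first for all 6 genes. For GOLS1, GOLS2 and GOLS4 the order was NILDOG3, NILDOG1, NILDOG6, Ler and NILDOG2. For GOLS3 it was NILDOG3, NILDOG6, Ler, NILDOG1 and NILDOG2, for RS4 NILDOG3, NILDOG6, NILDOG1, NILDOG2 and Ler, and for RS5 NILDOG3, Ler, NILDOG1, NILDOG2 and NILDOG6. No 2 neighbours in these orders passed the limma test (adjusted p from 0.47 to 1.0). Without the array labelled NILDOG6 replicate 1 the NILDOG6 means of GOLS1, GOLS4 and RS4 became 10.81, 3.98 and 7.23, above the NILDOG3 means of 10.70, 3.81 and 7.02.

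Over the 6 comparisons between NILs, 1 difference passed the limma test. GOLS3 was higher in NILDOG3 than in NILDOG2 by 0.86 (0.37 to 1.35), a 1.82-fold difference with an adjusted p of 0.049, in a comparison in which 3.2% of all genes passed and 1.04% passed upward. No member passed in the other 5, in which 2.56% of all genes passed between NILDOG2 and NILDOG1, 0.732% between NILDOG3 and NILDOG1, 2.6% between NILDOG6 and NILDOG1, 1.66% between NILDOG6 and NILDOG2 and 0.455% between NILDOG6 and NILDOG3. Without the array labelled NILDOG6 replicate 1, again 0 members passed in the 3 comparisons of NILDOG6 with the other NILs, in which 3.55% of all genes passed against NILDOG1, 6.78% against NILDOG2 and 0.802% against NILDOG3. The GOLS1 difference between NILDOG6 and NILDOG2 was 0.59 with this array and 1.03 (0.23 to 1.82, adjusted p = 0.114) without it, and that of RS4 was 0.71 and 1.06 (0.15 to 1.97, adjusted p = 0.155). The NILDOG3 arrays of GOLS1, GOLS2, GOLS3 and RS4 all lay above the NILDOG2 arrays, as they did for 13.8% of all genes. GOLS2 differed by 1.03 (0.29 to 1.78), GOLS1 by 0.92 (0.11 to 1.73) and RS4 by 0.85 (-0.02 to 1.71) between these lines, with adjusted p of 0.135, 0.239 and 0.329. The GOLS3 difference sat close to the threshold. It passed under 15 of 28 other settings, with adjusted p between 0.0063 and 0.258 over the 28; it was lost without any 1 of the NILDOG3 arrays, without NILDOG2 replicate 1 or 2 and without any of 7 arrays of other lines.

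GOLS1, GOLS2, GOLS4 and RS4 varied together from array to array, within as well as between genotypes. Of the 15 pairs of members, the 6 pairs among GOLS1, GOLS2, GOLS4 and RS4 had Pearson's r between 0.632 and 0.802 over 19 arrays, and each had a permutation p that stayed under 0.05 after adjustment over the 15 pairs. The share of all gene pairs that reach such r over these arrays was not computed. Genes that are not members had higher r with some members, up to 0.969 with GOLS1 and 0.945 with RS4, so these r are not shown to be particular to the members. For GOLS1 and RS4, r was 0.802 (permutation p = 2e-05, adjusted 0.0003) and Spearman's rho was 0.851 (permutation p = 1e-05, the smallest that 100000 permutations can give, adjusted 0.00015). After each genotype's mean was taken out, r for this pair was 0.865 (permutation p within genotypes = 0.0001, adjusted 0.0015), and it was 0.866 without the 2 arrays farthest from the median of GOLS1. GOLS1 and GOLS2 had r = 0.801 and rho = 0.796 (permutation p = 5e-05 and 0.00013), with 0.766 within genotypes and 0.764 without the 2 farthest arrays. GOLS4 followed GOLS1 at r = 0.793 and rho = 0.807 (permutation p = 7e-05 and 6e-05), with 0.795 within genotypes and 0.706 without the 2 farthest arrays. GOLS2 and RS4 had r = 0.755 and rho = 0.775 (permutation p = 0.00015 and 0.00016), with 0.826 within genotypes and 0.679 without the 2 farthest arrays. The pairs of GOLS4 with GOLS2 and with RS4 were weaker, at r = 0.65 and 0.632 (permutation p = 0.00268 and 0.00377), rho = 0.577 and 0.637 (permutation p = 0.0114 and 0.00411) and 0.557 and 0.555 without the 2 farthest arrays. All 6 pairs also passed within genotypes after adjustment, and without the array labelled NILDOG6 replicate 1 their r ran from 0.635 to 0.824. In replicates 1 to 3 alone (15 arrays), the set that every genotype has, r was 0.748 for GOLS1 with RS4 and 0.81 for GOLS1 with GOLS2; replicates 4 and 5 of Ler and NILDOG1 were too few for a value.

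GOLS3 and RS5 were less closely tied to the rest. In the 9 pairs that involve either gene r ran from -0.073 to 0.404, and none passed the test; their r was not tested against that of the other 6 pairs. Within genotypes GOLS3 had r = -0.174 with GOLS1 and -0.032 with RS4. Array medians moved with some of the members: across the 19 arrays r with the array median was -0.634 for RS4, -0.619 for GOLS3, -0.443 for GOLS2 and -0.425 for GOLS1. After each array was centred on its median, r was 0.826 for GOLS1 with RS4, 0.821 for GOLS1 with GOLS2 and 0.285 for GOLS1 with GOLS3. The 9 pairs with GOLS3 or RS5 then ran from 0.087 to 0.484, the highest being GOLS2 with GOLS3 (0.484), GOLS3 with RS4 (0.45) and GOLS2 with RS5 (0.394), and the other 6 pairs from 0.7 to 0.826.

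**Figure D3:**
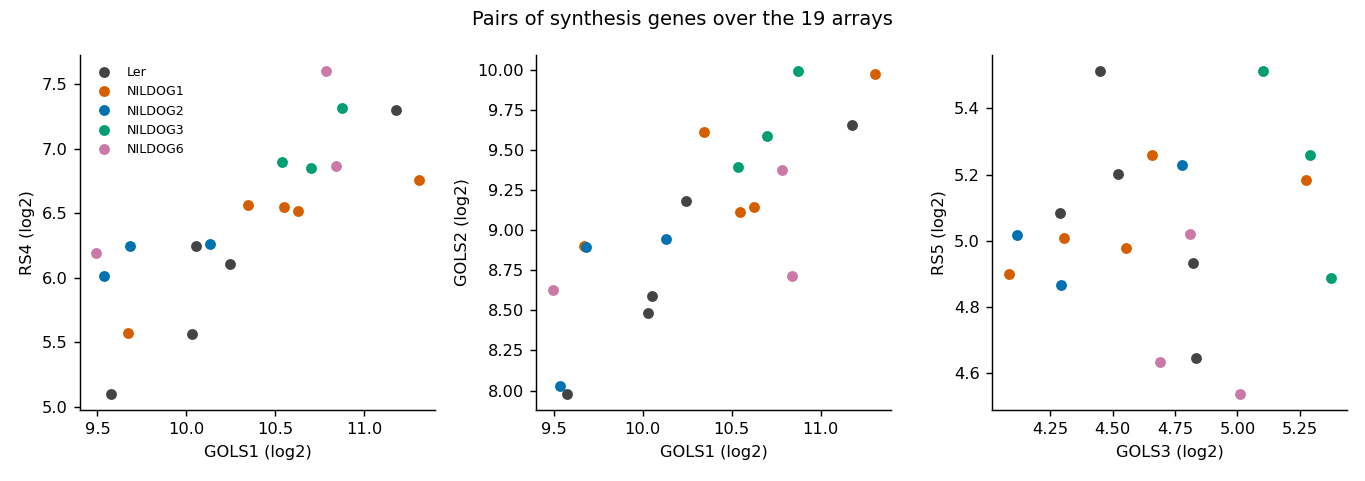
Values of pairs of synthesis genes (log2, both axes), 1 point per array, coloured by genotype. GOLS1 runs together with RS4 (r = 0.802) and GOLS2 (r = 0.801), with points of 1 genotype spread along the trend, while GOLS3 and RS5 show no such trend (r = 0.059).

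The genes whose profiles were most like each member's were then sought among 14919 genes with a mean above the 30th percentile. They are given as descriptions, since they were picked for their correlation, and all of them share the same 19 arrays. For GOLS1 the 3 closest were all heat shock genes: HSA32 (AT4G21320), which sustains acquired thermotolerance, with r = 0.969, HSP23.6-MITO (AT4G25200), a mitochondrial small heat shock protein, with r = 0.959, and HSP90.1 (AT5G52640), the heat-inducible cytosolic HSP90, with r = 0.955. Within genotypes r was 0.961, 0.958 and 0.966. HSP90.1 ran from 8.11 to 10.69, a wider range than that of GOLS1. Its 2 highest arrays, Ler replicate 2 at 10.69 and NILDOG1 replicate 3 at 10.48, were also the 2 highest of GOLS1. Its 2 lowest, at 8.11, were NILDOG1 replicate 5 and NILDOG6 replicate 1. The same 3 genes had r of 0.763 to 0.808 with RS4, 0.723 to 0.813 with GOLS2 and 0.7 to 0.719 with GOLS4, the members that follow GOLS1. With GOLS3 their r was 0.139 to 0.314, and with RS5 0.087 to 0.152.

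**Figure D4:**
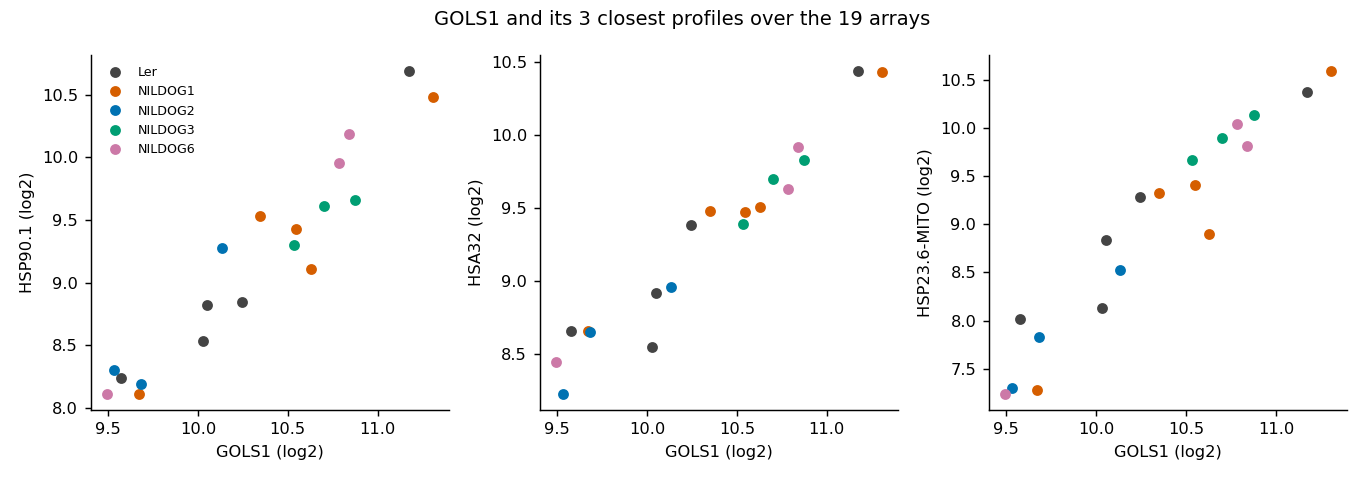
HSP90.1, HSA32 and HSP23.6-MITO (log2, y axes) against GOLS1 (log2, x axes), 1 point per array, coloured by genotype. Each rises with GOLS1 over the 19 arrays (r = 0.955, 0.969 and 0.959), and arrays of Ler and of NILDOG1 lie at both ends. NILDOG6 lies at the low end through replicate 1 alone, with GOLS1 at 9.49 against 10.84 and 10.78.

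The other members had other genes as their 3 closest profiles. GOLS2 was closest to SKP2A (AT1G21410), an F-box protein gene, with r = 0.941, then to AT1G76590 (0.929) and AP4.3A (AT2G32800, 0.91). RS4 was closest to PHYE (AT4G18130), which encodes the photoreceptor phytochrome E, with r = 0.945, then to AT2G19930 (0.945) and TKI1 (AT2G36960, 0.927). GOLS4 was closest to AT3G04590 (0.865), the syntaxin gene SYP52 (AT1G79590, 0.864) and AT4G35510 (0.85). In Ler, GOLS4 was at 3.58 to 4.01 in replicates 1 to 3 and at 3.33 and 3.36 in replicates 4 and 5. In NILDOG1 it was at 3.92 to 4.32 and at most 3.52. AT3G04590 and AT4G35510 were also lower in replicates 4 and 5 of both genotypes, and SYP52 in those of NILDOG1 alone. Only Ler and NILDOG1 have replicates 4 and 5. The part of the replicate set in these r of GOLS4 was not tested. The closest profiles of GOLS3 and RS5 were looser. GOLS3 had MSL3 (AT1G58200), a mechanosensitive channel gene, at 0.794, AT3G54240 at 0.782 and AT1G12530 at 0.772. RS5 had ALDH2C4 (AT3G24503), an aldehyde dehydrogenase gene, at 0.803, AT2G40070 at 0.773 and AT2G16630 at 0.766. No gene stood among the 3 closest of more than 1 member.

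Besides the members, 33 listed genes of the pathway and its regulators had a row (UGE5 had none). In NILDOG3, 2 of the 33 (6.06%, against 2.88% of all genes) passed the limma test, both lower than Ler (2.2% of all genes were called lower and 0.68% higher), while in NILDOG6 1 was higher and 1 lower (0.952% and 1.4% of all genes) and in NILDOG1 and NILDOG2 there were 0 of 33. At an unadjusted p under 0.05 the counts were 7 in NILDOG3 (21.2%, against 17.1% of all genes), 10 in NILDOG6 (30.3%, against 18.8%), 4 in NILDOG1 (12.1%, against 10.9%) and 2 in NILDOG2 (6.06%, against 6.78%). The 4 calls at an adjusted p under 0.05 fell on 3 genes: IMPL1, VTC4 and UGE3.

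The supply of myo-inositol, the acceptor used by galactinol synthase, held the clearest differences. IMPL1 (AT1G31190), a plastid inositol monophosphatase-like gene, was at 6.26, 6.403 and 6.38 in NILDOG3 against 7.62, 7.28, 7.74, 7.98 and 7.70 in Ler. It fell by 1.32 in NILDOG3 (-1.62 to -1.02, adjusted p = 3.4e-05) and by 0.58 in NILDOG6 (-0.88 to -0.28, adjusted p = 0.039). VTC4 (AT3G02870), an inositol monophosphatase that also acts on L-galactose phosphate in ascorbate synthesis, was at 6.55, 6.05 and 6.43 in NILDOG3 against 6.84 to 7.98 in Ler. It fell by 1.21 in NILDOG3 (-1.77 to -0.66, adjusted p = 0.018), and its differences of -0.97 in NILDOG6 and -0.71 in NILDOG1 did not pass (adjusted p = 0.059 and 0.188). The 3 myo-inositol phosphate synthases, MIPS1, MIPS2 and MIPS3, had differences of 0.40, 0.59 and -0.04 in NILDOG3, and none passed the test in any NIL over all 19 arrays.

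MIPS2 (AT2G22240), picked out here after its values were seen, followed the galactinol synthases from array to array. Its value ran from 8.995 to 11.17, lowest in NILDOG6 replicate 1 and highest in NILDOG1 replicate 3, the same 2 arrays as for GOLS1. Among the 33 listed genes it had the highest r with GOLS1 (0.952, and 0.951 within genotypes), with GOLS2 (0.852), with GOLS4 (0.739) and with RS4 (0.831). With GOLS3 and RS5 its r was 0.22 and 0.26. Its r with GOLS1 was 0.945 without the array labelled NILDOG6 replicate 1. With GOLS4, MIPS1 was close behind at 0.732. MIPS1 led there within genotypes (0.745 against 0.721 for MIPS2) and without the array labelled NILDOG6 replicate 1 (0.708 against 0.699). The MIPS2 difference between NILDOG3 and Ler, 0.59 (-0.27 to 1.45, limma adjusted p = 0.512), did not pass the test.

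UDP-galactose comes from UDP-glucose through the UGE epimerases. UGE3 (AT1G63180) was at 8.01, 8.08 and 8.42 in NILDOG6 and at 7.58 to 7.88 in Ler. It rose by 0.52 in NILDOG6 (0.26 to 0.79, adjusted p = 0.036), and the difference of 0.44 in NILDOG3 did not pass (adjusted p = 0.068). UGE1, UGE2 and UGE4 did not pass in any NIL.

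Among 5 genes of raffinose breakdown, 3 α-galactosidases (AGAL1 to AGAL3) and 2 raffinose synthase-like genes, none passed against Ler over all 19 arrays. The gene with the largest difference is named after its values were seen. DIN10 (AT5G20250), a raffinose synthase-like gene known from dark and sugar starvation in leaves, was at 4.43, 4.79 and 4.15 in NILDOG3 against 7.25, 6.06, 6.05, 7.48 and 6.56 in Ler. That was the widest difference of any listed gene, -2.23 (-3.58 to -0.87), but the arrays of other lines were split: NILDOG1 had 4.44, 4.91, 4.27, 7.65 and 4.26, and NILDOG6 had 7.01, 4.35 and 4.42. The adjusted p in NILDOG3 was 0.069. Between NILDOG3 and NILDOG2, 3 of the 33 listed genes (9.09%, against 3.2% of all genes) passed, all lower in NILDOG3 (2.17% of all genes): IMPL1 by -1.02 (adjusted p = 0.0011), VTC4 by -1.23 (0.025) and DIN10 by -2.66 (0.049).

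The array labelled NILDOG6 replicate 1 changed these counts. Without it, 6 of the 33 genes (18.2%) passed in NILDOG6 in place of 2 (6.06%), while the share of all genes that passed went from 2.36% to 8.39%: DIN10 (-2.29, adjusted p = 0.031), VTC4 (-1.32, 0.0051) and IMPL1 (-0.74, 0.0058) were lower, and GOLS10 (0.82, 0.048), MIPS3 (0.61, 0.024) and UGE3 (0.61, 0.014) were higher.

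**Figure D5:**
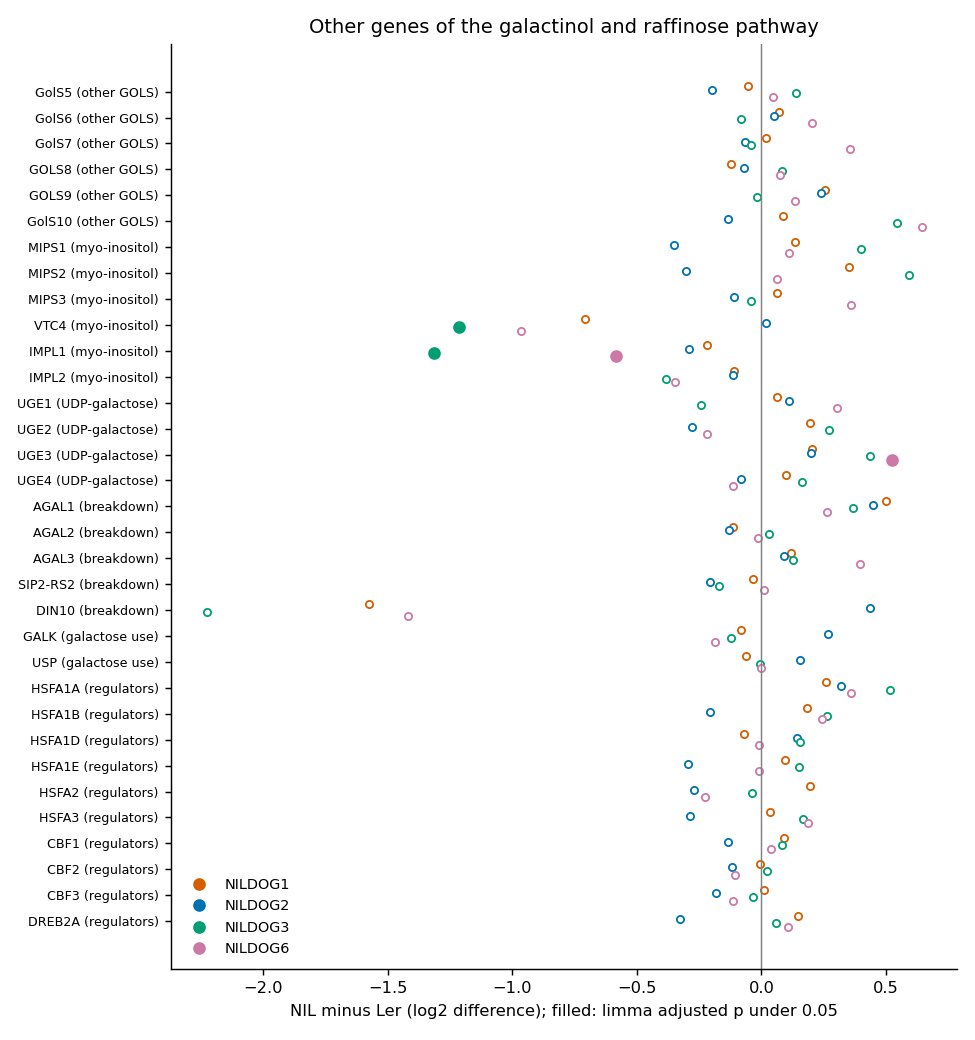
Difference of each NIL from Ler (log2, x axis) for the 33 other genes of the pathway and its regulators (y axis, list in brackets), coloured by line; filled points passed the limma test over all genes. The filled points are IMPL1 and VTC4 in NILDOG3 and IMPL1 and UGE3 in NILDOG6, and DIN10 lies farthest to the left at -2.23.

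The remaining lists held no call over all 19 arrays. The other 6 genes of the galactinol synthase family, GOLS5 to GOLS10, had median differences of -0.067 to 0.17 across the lines, and of 0.297 in NILDOG6 without the array labelled NILDOG6 replicate 1. Of these, GOLS5, GOLS6 and GOLS9 were dim, below the 30th percentile on 17, 19 and 18 of the 19 arrays. Neither galactokinase nor UDP-sugar pyrophosphorylase, which recycle released galactose, passed. Among 10 regulators (the heat shock factors HSFA1A, HSFA1B, HSFA1D, HSFA1E, HSFA2 and HSFA3, the cold factors CBF1 to CBF3 and DREB2A), 0 passed in any NIL, with 1 at an unadjusted p under 0.05 in NILDOG3 and 1 in NILDOG6. HSFA1B, HSFA1E and HSFA2 had r of 0.851, 0.795 and 0.723 with GOLS1 over the 19 arrays. HSFA3 had 0.558, HSFA1A 0.38 and HSFA1D -0.079. With GOLS2 and RS4 the r of HSFA1B was 0.76 and 0.786 and that of HSFA1E was 0.652 and 0.611, and with GOLS4 they had 0.588 and 0.698. HSFA2 had lower r with these members, at 0.554 with GOLS2, 0.417 with RS4 and 0.444 with GOLS4. The 3 CBF genes had r of 0.209 to 0.256 with GOLS3, and of 0.424 to 0.45 after each array was centred on its median. Before centring, CBF1 had a higher r with GOLS4 (0.562), GOLS2 (0.524) and GOLS1 (0.453), and CBF3 with GOLS2 (0.578) and GOLS1 (0.487), while CBF2 ran from -0.238 to 0.216 over the 6 members. After centring, these r of CBF1 and CBF3 were higher as well, at 0.551 to 0.712. CBF3 was below the 30th percentile on all 19 arrays, CBF1 on 10, and GOLS4, HSFA2 and HSFA3 each on 4.

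Of the members, GOLS2, GOLS3 and GOLS4 lie on chromosome 1, GOLS1 on chromosome 2, RS4 on chromosome 4 and RS5 on chromosome 5. Among the 40 nearest genes of the table around each, at most 3 passed the limma test in any NIL against Ler, the 3 being around GOLS3 in NILDOG3 (7.5%, against 3.68% of chromosome 1). Without the array labelled NILDOG6 replicate 1 the count in NILDOG6 was, among the members, highest around GOLS2, at 5 of 40 (12.5%, against 8.1% of chromosome 1). Around GOLS2, 2 of 40 passed in NILDOG3 (5%, against 3.68% of chromosome 1), the nearest being AT1G56580, 2 genes away, at -1.36. Around RS5, 2 of 40 passed in NILDOG1 (5%, against 2.82% of chromosome 5), the nearest being AT5G40410, 1 gene away, at -0.49. IMPL1 was different: 7 of its 40 neighbours (17.5%) passed in NILDOG3, among them AT1G31170, 1 gene away, at -1.42. AT1G31170 also passed in NILDOG6, at -1.14, where 2 of the 40 neighbours did (5%, against 2.37% of chromosome 1). Without the array labelled NILDOG6 replicate 1, 6 of the 40 passed in NILDOG6 (15%, against 8.1%). The borders of the introgressed fragments were not used here. For a gene inside one, a change in transcript and a change in how well its RNA binds probes designed on another accession cannot be told apart.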

How the data were processed

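The authors normalized ATH1 GeneChips with RMA and deposited the log2 values; RMA corrects background, equalises the probe distributions of the arrays and summarises the probes of a gene. Gene rows carry AGI codes, 1 per gene. RNA extraction is described for dry seeds in the labels and for 24-h imbibed seeds in the study's methods, and the latter was followed. Only dormant seeds were analysed.

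The members and gene lists were chosen with earlier results of these data known. Differences were fitted with limma 3.58.1 (R 4.3.3; lmFit, eBayes, constant prior) over all 19 arrays with a mean for each of 5 genotypes and no filter or covariate. A gene passed where its p, adjusted by Benjamini-Hochberg over 21313 genes, was under 0.05. The script was tested on simulated data. Correlations used 100000 permutations (two-sided) in Python 3.11.15 with numpy 2.4.6 and scipy 1.17.1. Names and gene order were read from RefSeq (assembly TAIR10.1) (21205 genes matched). Named genes were the 6 members, listed genes that passed in at least 1 NIL against Ler, and the 3 closest profiles of each member; MIPS2, DIN10 and other listed genes were named after their values were seen. Alternatives were other thresholds, a filter at the 30th percentile of mean level, median centring, quantile normalization, a prior trend, array weights, a fit of the NIL and Ler alone, the replicate number as a block, a replicate set term, replicates 1 to 3 only and leaving out each array. A gene planned for the pathway lists is not reported here. The number of arrays limits the precision.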

Additional observations from a re-analysis of the deposited data

Results flagged for a closer look

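RS4 in NILDOG1 replicate 5 was 5.57, far below the other 4 NILDOG1 arrays, which lay between 6.52 and 6.75. The same array had the lowest NILDOG1 value of GOLS1 (9.67), GOLS2 (8.90) and HSP90.1 (8.11). UGE3 in Ler replicate 2 was 7.88, above the other 4 Ler arrays, which lay between 7.58 and 7.61. These were 2 of 18 groups of 5 arrays examined, and chance flags about 1 in 20. For GOLS3, the differences of NILDOG3 and NILDOG2 from Ler differed from each other by 0.86 (limma adjusted p = 0.049). This is the comparison of NILDOG3 with NILDOG2 given above and no separate result. It passed under 15 of 28 other settings.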

How the results depend on the processing

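The count of 0 of 6 members held under each alternative tried for NILDOG1 and NILDOG2. For NILDOG3 it became 1 with centred arrays, 3 with array weights, 1 with the replicate set term and 1 in the fit of the NIL and Ler alone, and ran from 0 to 2 when arrays were left out (2 without Ler replicate 2). The F test gave 1 with array weights, 1 with replicates 1 to 3 only, 1 with the set term, and 0 to 2 with arrays left out (2 without Ler replicate 2, 1 without NILDOG1 replicate 4). In NILDOG6 leaving out arrays gave 0 to 1. With the replicate number as a block, the count was 1 in NILDOG3 and 1 in the F test. The plants grew in randomized blocks according to the study's methods, and the sources used here do not say whether an array's number is that of a block. Arrays of a NIL and Ler with the same number deviated from their group means with correlations from -0.295 to 0.373. These were above 0.1 in 8 of 14 pairs (4 of 5 for NILDOG1, 0 of 3 for NILDOG2). They do not settle whether the numbers pair the arrays, and the main fit had no block for the replicate number. Under this block the difference from Ler was -0.14 for GOLS1 in NILDOG6, -0.0705 for GOLS2 in NILDOG6, -0.0034 for GOLS4 in NILDOG3, -0.0901 for GOLS4 in NILDOG6, 0.0147 for RS5 in NILDOG2 and -0.13 for RS4 in NILDOG2, each with its sign turned, and the set term gave the same values. With replicates 1 to 3 only, GOLS1, GOLS2 and GOLS4 in NILDOG6 and RS4 in NILDOG2 were at -0.11, -0.21, -0.0328 and -0.15. Centring and quantile normalization turned GOLS3 in NILDOG1 to 0.0368 and 0.0446, and RS5 there to 0.0346 and 0.047. Centring moved the median of all genes by 0.12 in NILDOG3 and 0.11 in NILDOG6. With arrays left out in turn, the ranges that crossed 0 were -0.0768 to 0.60 (GOLS1, NILDOG6), -0.36 to 0.14 (GOLS2, NILDOG2), -0.11 to 0.34 (GOLS2, NILDOG6), -0.18 to 0.11 (GOLS3, NILDOG1), -0.16 to 0.12 (GOLS4, NILDOG2), -0.15 to 0.39 (GOLS4, NILDOG6), -0.12 to 0.10 (RS5, NILDOG1), -0.15 to 0.071 (RS5, NILDOG2), -0.0034 to 0.31 (RS5, NILDOG3) and -0.13 to 0.42 (RS4, NILDOG2).

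GOLS3 in NILDOG3 against Ler kept its direction under all 28 alternatives and passed under 6, with adjusted p from 0.013 to 0.234. IMPL1 in NILDOG3 passed under all 28, VTC4 in NILDOG3 under 24, UGE3 in NILDOG6 under 20 and IMPL1 in NILDOG6 under 14. VTC4 was lost without Ler replicate 1 (adjusted p = 0.054), NILDOG3 replicate 2 (0.135) or NILDOG3 replicate 3 (0.057), UGE3 without Ler replicate 1 (0.080), 3 (0.080) or 4 (0.067) or NILDOG6 replicate 2 (0.110) or 3 (0.198), and IMPL1 in NILDOG6 without any of 9 arrays, with adjusted p up to 0.225. The cause of these changes was not tested. GOLS4 lay nearest the dim end of the arrays, below the 30th percentile on 4 of the 19, and no detection calls were used.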
